A study of Mus musculus with 6 samples.

Results

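Rpl3 and Rpl3l, the paralogous genes of the cytosolic ribosomal protein L3, were compared in 6 mouse hearts with and without deletion of Mrps5, which encodes a small subunit protein of the mitochondrial ribosome. Both genes were taken by name from the deposited expression table, as 2 of its 54532 genes. They had been chosen by their measured FPKM difference between the groups, which is given here without a test. The 3 control hearts (Ctrl) came from Mrps5 fl/fl mice, whose Mrps5 alleles are flanked by loxP sites. The 3 knockout hearts (cKO) came from Mrps5 fl/fl; MCM mice, which also carry MerCreMer, a Cre recombinase driven by the cardiomyocyte promoter αMHC and switched on by tamoxifen. Mice of both groups received intraperitoneal tamoxifen at 45 mg/kg/day for 5 days at 8 weeks of age, and hearts were taken 12 weeks after the injections. The controls carried no Cre, so effects of Cre itself and of the Mrps5 deletion cannot be told apart. The study describes ventricular tissue, littermate controls and male mice. Values are FPKM, which divide the fragments of a gene by its length and by a measure of library size, and each heart was a library of its own. Values of the hearts of a group are listed in the order of replicates 1, 2 and 3.

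RPL3 is a core protein of the large ribosomal subunit that reaches toward the peptidyl transferase centre, where peptide bonds are made. Rpl3 is used in nearly all cells, whereas Rpl3l is a vertebrate copy expressed mainly in heart and skeletal muscle, where its product occupies the position of RPL3 in part of the ribosomes. Levels of Rpl3l in muscle are known to be high in the mature tissue and to drop during growth and regeneration. GRWD1 acts as a chaperone of newly made RPL3, and METTL18 methylates a histidine of RPL3.

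The extent to which sequencing reads can tell the paralogs apart was examined first. Rpl3 (ENSMUSG00000060036) lies at chr15:80077791-80091868 on the minus strand, and Rpl3l (ENSMUSG00000002500) at chr17:24727820-24736143 on the plus strand (GRCm38). Their full-length coding transcripts in GENCODE release M21, Rpl3-201 and Rpl3l-202, both have 10 exons and encode 403 and 407 codons. Over 1210 aligned coding bases, 897 were identical (74.1%) and 313 differed. Identity was 81.4% at first and 86.4% at second codon positions, and 54.6% at the third. The longest run shared by both genes has 22 bases, within 1 exon of each gene, at chr15:80082420-80082441 (minus strand) and chr17:24728458-24728479 (plus strand), and is printed to show how short the shared sequence is:
Rpl3 and Rpl3l, coding bases 145 to 166: tacaaggctggcatgacccaca
Among the stretches examined, coding bases 685 to 774 were the most alike over 90 bases. They are shown with the bases that differ between the genes in capitals, spliced over 2 exons at chr15:80079765-80080369 and chr17:24733492-24733669:
Rpl3 coding 685 to 774: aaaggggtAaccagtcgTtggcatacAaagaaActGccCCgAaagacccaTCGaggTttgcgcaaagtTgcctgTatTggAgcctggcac
Rpl3l coding 685 to 774: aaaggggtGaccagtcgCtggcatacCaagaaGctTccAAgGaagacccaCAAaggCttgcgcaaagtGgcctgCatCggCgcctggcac
The ends of the coding sequences, with the stop codon, are shown because they hold the end at which the paralogs differ in length. Capitals again mark bases that differ or have no counterpart, and each stretch is spliced over 2 exons, at chr15:80077850-80078031 and chr17:24735797-24736056:
Rpl3 coding 1123 to 1212: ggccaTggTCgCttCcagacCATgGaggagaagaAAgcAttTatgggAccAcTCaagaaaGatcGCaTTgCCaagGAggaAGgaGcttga
Rpl3l coding 1123 to 1224: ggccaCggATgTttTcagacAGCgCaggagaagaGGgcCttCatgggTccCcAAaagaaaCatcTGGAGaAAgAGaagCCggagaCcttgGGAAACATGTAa
No window of 150 bases, the length of a read, was identical between the coding sequences, and the closest such windows differed at 29 bases. A full-length read within the coding part of either gene thus carried many bases that assign it.

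**Figure D1:**
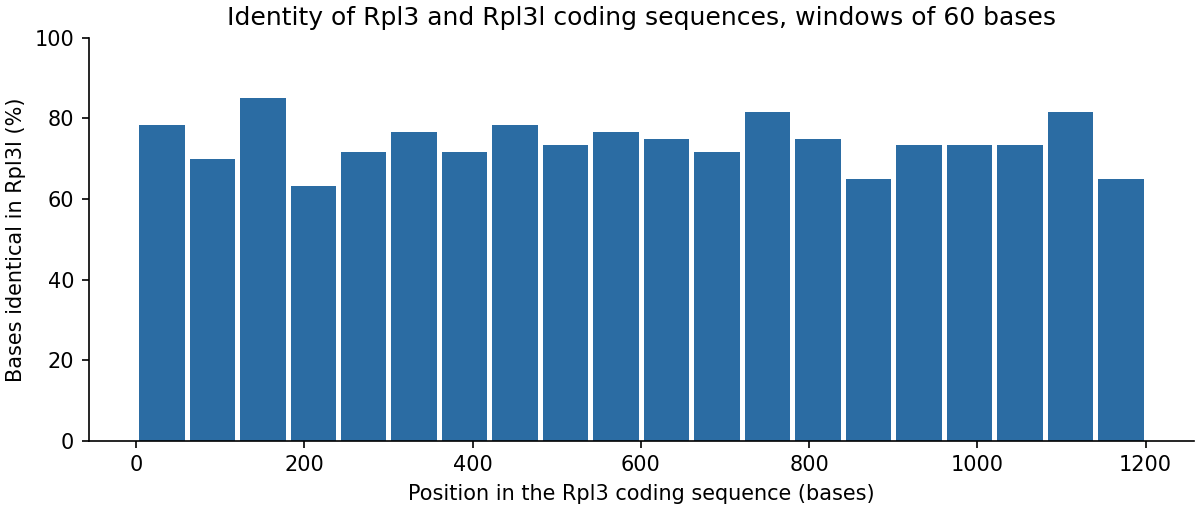
Share of Rpl3 coding bases that are identical in Rpl3l (percent, vertical axis) in consecutive windows of 60 bases along the Rpl3 coding sequence (bases, horizontal axis). Windows lie between 63.3% and 85.0%, with no window of full identity.

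A processed copy of Rpl3 on the X chromosome was much closer. Rpl3-ps1 (chrX:13202571-13203780, GRCm38, plus strand) is a pseudogene of 1 exon that differs from the Rpl3 coding sequence at 2 of 1209 aligned bases. Its counterpart of the last stretch contains no base that differs from Rpl3 (chrX:13203694-13203780), in contrast to the 29 capitals above:
Rpl3-ps1, end of the copy: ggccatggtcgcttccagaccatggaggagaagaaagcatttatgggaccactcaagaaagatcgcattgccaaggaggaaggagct
Of 1063 windows of 150 coding bases of Rpl3, 853 (80.2%) occur unchanged in Rpl3-ps1, so reads of these genes can be exchanged, and how reads with several alignments were counted is not stated. Rpl3-ps1 had 15.9, 9.89 and 12.4 FPKM in the Ctrl hearts and, in the cKO hearts, 26.2, 24.2 and 23.7 FPKM. It was higher in cKO by a log2 fold change of 0.93 (SE 0.155, limma adjusted p 0.0057). A second copy, Rpl3-ps2, differs from Rpl3 at 10 of 1211 aligned bases and did not exceed 0.779 FPKM in any heart. The reads of both copies together came to 8.00% to 10.6% of the Rpl3 reads in the Ctrl hearts and 5.98% to 6.38% in the cKO hearts.

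The libraries held 15989322 to 24875499 reads assigned to genes, and the targeted gene followed the labels. The Ctrl hearts had 5.20, 6.45 and 6.33 FPKM of Mrps5 and the cKO hearts 1.12, 1.23 and 1.31 FPKM (log2 fold change -1.65, limma adjusted p 0.000202). The library of cKO replicate 2 stood apart from the stated sex: 4 Y-linked genes were at 0 in it and averaged 7.61 to 8.79 FPKM in the other hearts, and Xist was at 10.7 FPKM in it and at most 0.127 FPKM elsewhere. Results are therefore also given without this heart. All 12 cardiomyocyte markers examined were expressed, with a summed level of 20111 to 25316 FPKM in Ctrl and 12985 to 21039 FPKM in cKO hearts.

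Rpl3, the general form, was about 3 times as abundant in cKO as in Ctrl hearts. The Ctrl hearts had 57.9, 47.5 and 46.9 FPKM, counted from 3504, 3137 and 3600 reads. The cKO hearts had 165, 157 and 143 FPKM, counted from 8874, 11624 and 11426 reads. Every cKO heart lay above every Ctrl heart, and the lowest cKO value was far outside the spread of the controls. The group means were 50.8 ± 6.18 FPKM in Ctrl and 155 ± 11.1 FPKM in cKO (SD, n = 3 each), a ratio of 3.05. On the log2(FPKM + 1) scale the difference was 1.60 (SE 0.107). Without cKO replicate 2 the cKO mean was 154 FPKM. Adding the reads of both pseudogenes to those of Rpl3 left a log2 difference of 1.57.

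Rpl3l, the form of striated muscle, was lower in every cKO heart. The Ctrl hearts had 186, 207 and 196 FPKM, counted from 5821, 7064 and 7802 reads. The cKO hearts had 41.0, 35.0 and 62.4 FPKM, counted from 1141, 1343 and 2581 reads. The groups did not overlap, and cKO replicate 3 kept the most Rpl3l of the cKO hearts. The means were 196 ± 10.4 FPKM in Ctrl and 46.2 ± 14.4 FPKM in cKO (SD, n = 3 each), so that 23.5% of the Ctrl level was measured in cKO. The log2 difference was -2.11 (SE 0.198). The coefficient of variation of Rpl3l was 5.32% in Ctrl and 31.2% in cKO, whereas that of Rpl3 was 12.2% and 7.19%. Without cKO replicate 2 the cKO mean of Rpl3l was 51.7 FPKM. In bulk tissue, fewer cells of a type and less RNA per cell cannot be told apart.

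**Figure D2:**
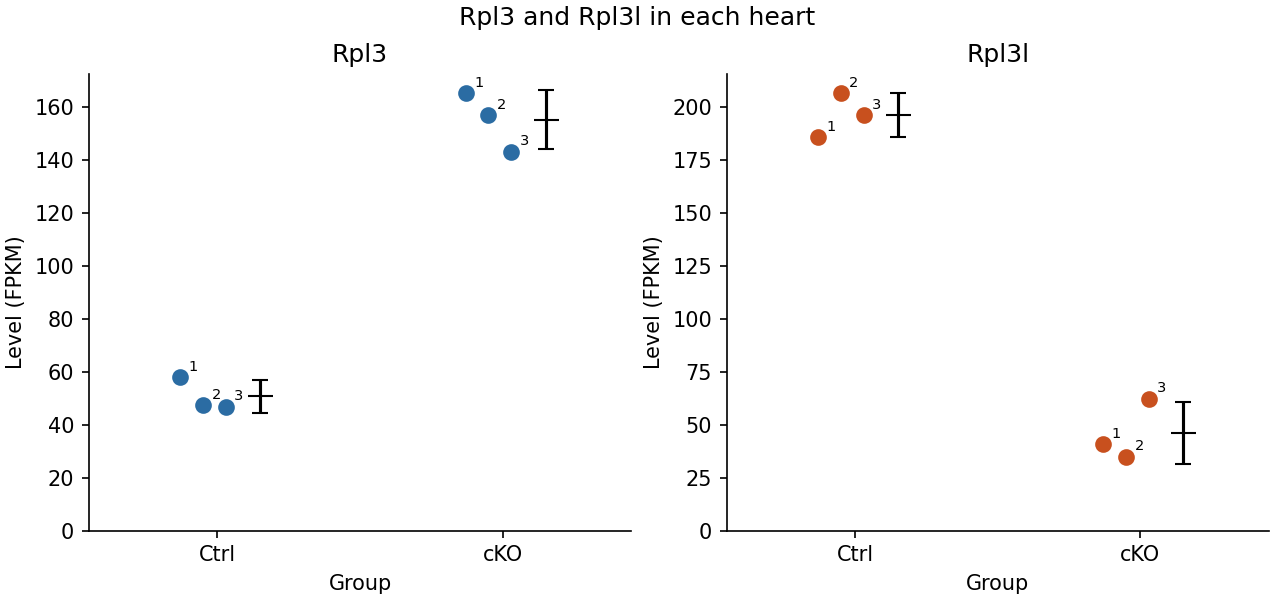
Level of Rpl3 (left) and Rpl3l (right) in FPKM on the vertical axis for each heart of the Ctrl and cKO groups. Points are hearts with their replicate number, and the bars show the mean and SD of 3 hearts. Rpl3 lies at 46.9 to 57.9 FPKM in Ctrl and at 143 to 165 FPKM in cKO, and Rpl3l lies at 186 to 207 FPKM in Ctrl and 35.0 to 62.4 FPKM in cKO.

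By deposited FPKM, Rpl3l was the more abundant paralog in every Ctrl heart and Rpl3 in every cKO heart. Reads left uncounted because they also match Rpl3-ps1 would lower Rpl3 and not Rpl3l, since none of the Rpl3l coding windows of 150 bases occurs in that copy. Such a loss would bear on the order in Ctrl and on the shares, and its size was not tested. In the Ctrl hearts, the FPKM of Rpl3l was 3.21, 4.35 and 4.19 times that of Rpl3. In the cKO hearts, the FPKM of Rpl3 was 4.02, 4.48 and 2.29 times that of Rpl3l. The log2 ratio of Rpl3l to Rpl3 averaged 1.96 ± 0.24 in Ctrl and -1.79 ± 0.52 in cKO (SD, n = 3 each), a difference of -3.75. The gap between the groups was thus several times the spread within either of them. The heart with the smallest reversal was cKO replicate 3, which combined the highest Rpl3l with the lowest Rpl3 of its group. The other cKO hearts did not show such an opposition, since replicate 2 was lower than replicate 1 for both genes.

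As a share of the summed FPKM of both genes, Rpl3l made up 76.2%, 81.3% and 80.7% in the Ctrl hearts. It made up 19.9%, 18.3% and 30.4% in the cKO hearts. On average these shares were 79.4% ± 2.77 and 22.8% ± 6.58 (SD, n = 3 each), a difference of -56.6 percentage points. Without cKO replicate 2 the cKO mean was 25.1%. Counting error was small beside these differences. By reads alone, the share of Rpl3l was 62.4% in Ctrl replicate 1, the lowest Ctrl heart (95% Wilson interval 61.4% to 63.4%), and 18.4% in cKO replicate 3, the highest cKO heart (17.8% to 19.1%). Such intervals cover counting error only.

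The level of Rpl3 relative to Rpl3l depended on the gene length. The table divides the reads of Rpl3 by 3175 bases, the union of all exons of its 7 annotated transcripts, of which 3 are retained-intron forms. Its full-length coding transcript has only 1351 bases. For Rpl3l the corresponding lengths are 1643 and 1375 bases, which differ far less. Per kilobase of the full-length transcript, with the library scaling unchanged, the Ctrl hearts had 136, 112 and 110 units of Rpl3 and the cKO hearts 388, 368 and 336. On this scale the Ctrl hearts had 222, 247 and 235 units of Rpl3l and the cKO hearts 49.0, 41.8 and 74.6. The order of the genes in each group was the same as with the deposited lengths. The share of Rpl3l became 62.0% to 68.9% in Ctrl and 10.2% to 18.2% in cKO hearts, and the difference of the log2 ratio between groups did not move, because a fixed length cancels in it.

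The sum of both genes, in contrast, changed direction with the length. With the deposited lengths the Ctrl hearts had 244, 254 and 243 FPKM and the cKO hearts 206, 192 and 206 FPKM, so that every cKO heart was lower (means 247 ± 6.23 and 201 ± 8.10, SD, n = 3 each). Per kilobase of the full-length transcripts the Ctrl hearts had 358, 359 and 345 units and the cKO hearts 437, 410 and 411, so that every cKO heart was higher (means 354 ± 7.89 and 419 ± 15.3). The log2 difference of the sum was -0.30 with the former and 0.24 with the latter lengths. Which transcripts of Rpl3 the reads came from was not tested, since the table holds 1 value per gene. The direction of the summed level thus rested on the length used, whereas Rpl3l had the larger share in Ctrl and Rpl3 in cKO with either length. Neither length makes up for Rpl3 reads that may have been left uncounted because of Rpl3-ps1.

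**Figure D3:**
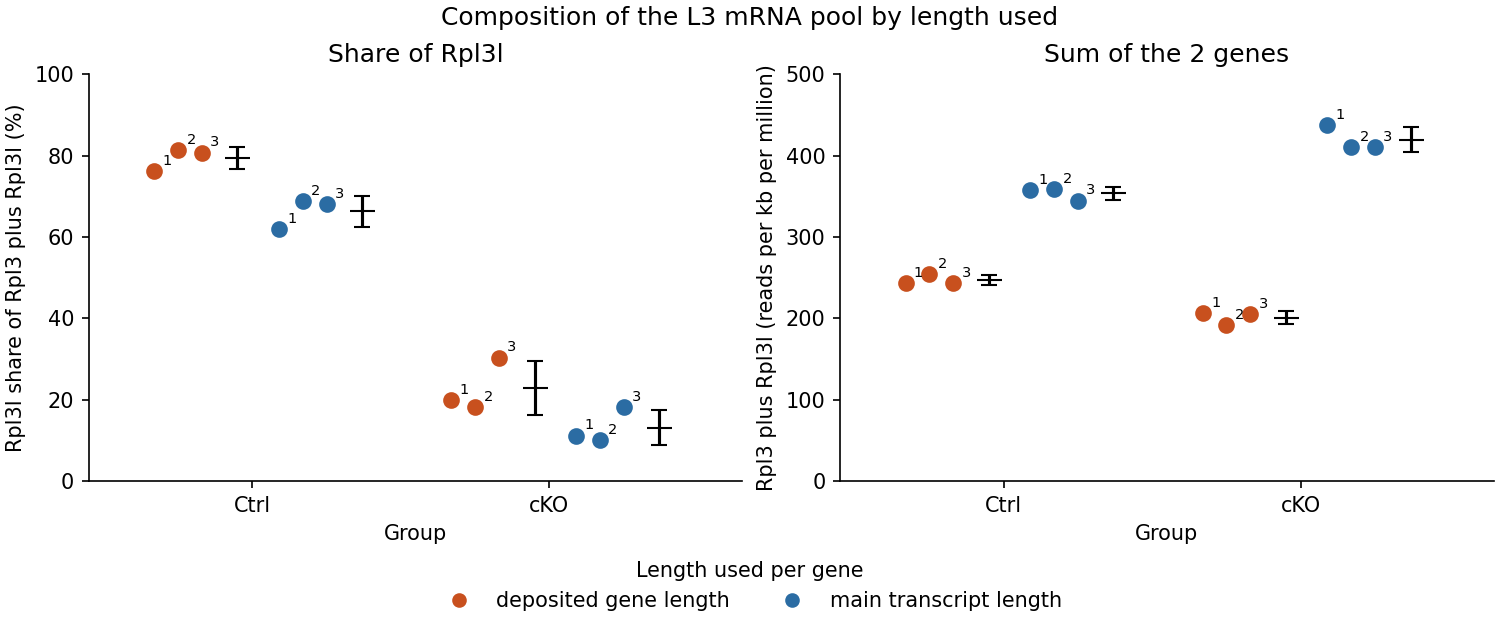
Left, share of Rpl3l in the sum of Rpl3 and Rpl3l (percent), and right, the sum itself (reads per kilobase, scaled to library size), for each heart with the deposited gene lengths (orange) and the lengths of the full-length transcripts (blue). Numbers are replicates, and bars are mean and SD of 3 hearts. The share is lower in cKO with both lengths, and the sum is lower with the deposited and higher with the transcript lengths.

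The other proteins of the ribosome were compared next, to place Rpl3 among the subunits it is assembled with. Among all 12944 genes tested, 16.3% were higher and 17.0% lower in cKO at a limma adjusted p under 0.05, with a median log2 fold change of -0.02. After scaling to library totals that leave out mtDNA-encoded genes, the split of 2110 higher and 2205 lower genes became 2649 and 1620. Of the other 46 proteins of the large subunit, 34 were higher and 0 lower, with a median log2 fold change of 0.45. Of the 32 proteins of the small subunit, 22 were higher and 0 lower, with a median of 0.40. Without cKO replicate 2 these counts were 36 and 24 higher, again with 0 lower. None of the 78 genes of these lists was thus called lower. Among them Rpl24 had the lowest log2 fold change at -0.14 (limma adjusted p 0.304). Its row held only 7 to 16 reads per heart (0.374 to 0.662 FPKM), so little is read from its value.

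Rpl3 stood above all 78 of these genes in its log2 difference. The nearest called gene was Rps27a, which encodes a small subunit protein fused to ubiquitin, at 0.99 (limma adjusted p 0.0335, and 0.0141 to 0.102 over the 14 alternative settings). The call of Rps27a was lost on leaving out Ctrl replicate 1 or 2 or cKO replicate 2 or 3. In the large subunit, Rpl17 had the largest log2 fold change, 0.89, but was not called (adjusted p 0.222). Its values ranged from 35.7 to 99.8 FPKM within Ctrl and from 49.4 to 142 FPKM within cKO. Rpl13a rose by a log2 fold change of 0.85 (adjusted p 0.00249) and Rpl10 by 0.80 (adjusted p 0.00295). Rpl13a had low values, at 3.82 to 4.24 FPKM in Ctrl and 6.85 to 9.19 FPKM in cKO hearts. The lowest values beside Rpl24 were those of Rpl36 at 0.12 and Rpl37a at 0.15, neither of them called. In the small subunit, Rps26 rose by 0.84 (adjusted p 0.00107) and Rpsa by 0.83 (adjusted p 0.00125), while Rps27 at -0.13, Rps2 at 0.00 and Rps29 at 0.12 were not called.

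Relative to the median large subunit gene of the same heart, the FPKM of Rpl3 was 42.6% to 53.2% in Ctrl and 105% to 122% in cKO. Its rank among 47 genes, itself and the 46 others, was 38, 41 and 40 in the Ctrl hearts and 19, 18 and 22 in the cKO hearts. Rpl3l would have ranked 11, 8 and 8 in Ctrl and 43, 43 and 42 in cKO. These percentages and ranks depend on the deposited lengths. For Rpl3 they also depend on how reads shared with Rpl3-ps1 were counted, which is not stated. Processed copies of the other genes were not examined. Dividing by 3175 bases instead of the 1351 bases of the full-length transcript lowers the level of Rpl3 itself. The transcript lengths of the other genes were not examined, so the direction of the shift against them is not known. The median of the 46 genes was itself higher in cKO, at 129 to 152 FPKM against 102 to 111 FPKM in Ctrl. After division by the median ribosomal protein gene of each heart, the log2 difference was 1.26 for Rpl3 and -2.49 for Rpl3l.

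**Figure D4:**
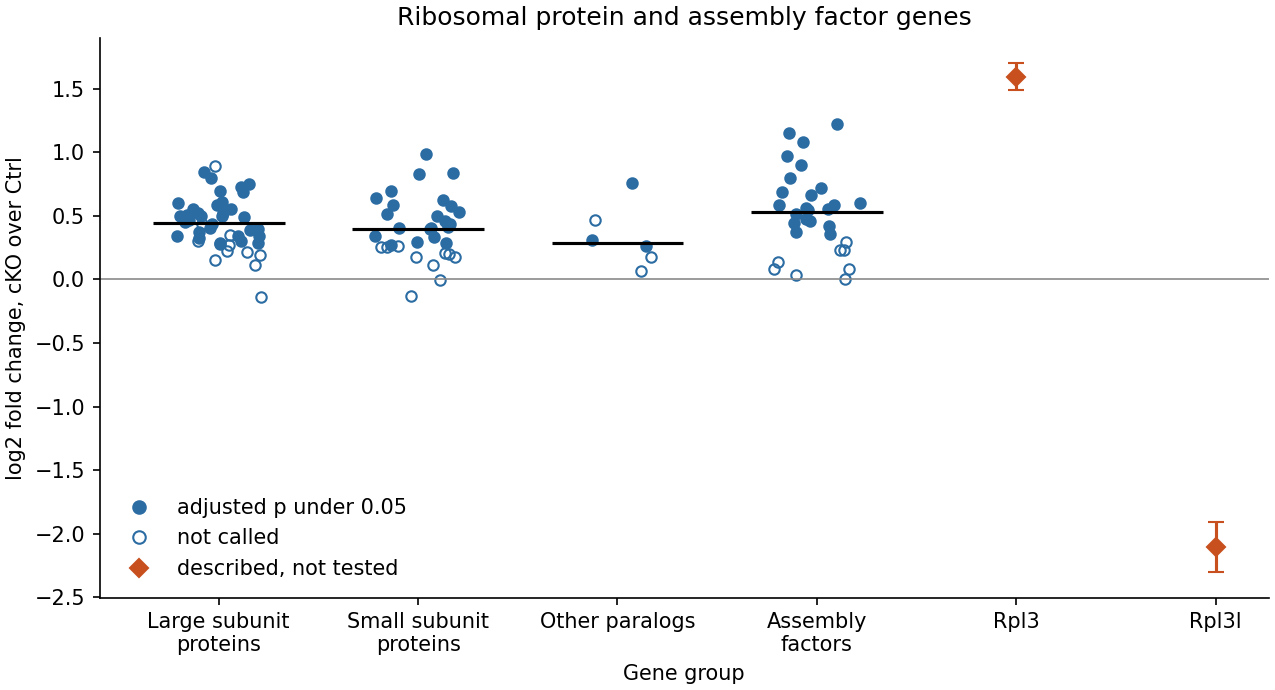
log2 fold change of cKO over Ctrl (vertical axis) for the tested genes of 4 lists and for Rpl3 and Rpl3l. Points are genes, filled where the limma adjusted p is under 0.05, horizontal lines are list medians (0.45, 0.40, 0.29 and 0.53), and the bars on Rpl3 and Rpl3l are SE. Rpl3 lies above and Rpl3l below every gene of the 4 lists.

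Rpl3l was compared with further paralogs of ribosomal protein genes. The list holds 9 genes, of which Rps4l and Rpl37rt are annotated in the table as transcribed processed pseudogenes. Of these 9 genes, 6 passed the filter of a mean of 0.5 FPKM, 3 were higher in cKO and 0 lower. For Rps27l, a paralog of Rps27, the Ctrl hearts had 79.1, 86.0 and 74.2 FPKM and the cKO hearts 146, 126 and 136 FPKM (log2 fold change 0.76, limma adjusted p 0.00209). Rpl37rt, at 0.31, and Rpl7l1, at 0.26, were called with smaller changes (adjusted p 0.033 and 0.03). Both lost the call on leaving out Ctrl replicate 1, Ctrl replicate 3 or cKO replicate 1. Rpl37rt also lost it without cKO replicate 3, and Rpl7l1 without Ctrl replicate 2 or cKO replicate 2. Rps4l at 0.47, Rpl22l1 at 0.17 and Rps27rt at 0.06 were not called. Rpl36al and Rpl39l were below the filter, and Rpl10l, a paralog known from testis, was at 0 in all hearts. Rps27l, Rpl37rt and Rps27rt have close relatives in the genome, so that shared reads make their values uncertain.

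Genes that handle RPL3 on its way into the ribosome were examined as well. The Ctrl hearts had 6.53, 5.42 and 4.36 FPKM of Grwd1, the chaperone, and the cKO hearts 13.0, 16.1 and 11.1 FPKM. Grwd1 rose by a log2 fold change of 1.16 (SE 0.17, limma adjusted p 0.00336). Mettl18, the methyltransferase, had a log2 fold change of -0.36 and was not called (adjusted p 0.0869). Of 30 assembly factors of the large subunit, 22 were higher and 0 lower, with a median of 0.53, and 19 were higher without cKO replicate 2. Nop16 rose by 1.22 (adjusted p 0.00136), Bop1, a subunit of the PeBoW complex, by 1.16 (adjusted p 0.000832) and Gnl3, the nucleolar GTPase nucleostemin, by 1.08 (adjusted p 0.000893). Rpf1 at 0.00, Urb1 at 0.03 and Rrp1 at 0.08 had the lowest values, none of them called.

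None of the protein-coding genes that overlap or flank the paralogs was called. Rpl3 is flanked by Pdgfb, a growth factor gene, at a log2 fold change of -0.31 (limma adjusted p 0.158), and by Tab1, a kinase adaptor, at -0.04 (adjusted p 0.744). Syngr1, a synaptic vesicle protein gene that overlaps Rpl3, was at 0.24 and not called (adjusted p 0.1). Syngr1 was called as higher without Ctrl replicate 2 and with library totals that leave out mtDNA-encoded genes. The small nucleolar RNA gene Snord83b lies inside Rpl3 and had 0, 1 and 0 reads in the Ctrl hearts and 1, 3 and 2 reads in the cKO hearts. It passed the filter only through its cKO values, so nothing is read from its difference. Snord43 was below the filter, and Gm24204 and Gm22077 were at 0. Next to Rpl3l, Ndufb10, a subunit gene of respiratory complex I, was at -0.28 (adjusted p 0.0728) and Msrb1, a methionine sulfoxide reductase gene, at -0.08 (adjusted p 0.535). Mrpl3, which encodes the L3 protein of the mitochondrial ribosome and was added after its values were seen, was at 15.5 ± 0.766 FPKM in Ctrl and 13.8 ± 0.188 FPKM in cKO (log2 fold change -0.15, adjusted p 0.13).

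Rpl3l and Rpl3 were then set beside other pairs in which muscle or the adult heart uses a form of its own. Of 18 pairs listed, 16 had both genes tested. Among the 15 pairs besides Rpl3l to Rpl3, 9 muscle forms were lower and 9 of the other forms higher by the limma test. Over all genes tested, 17.0% were lower and 16.3% higher. In 5 of these 15 pairs the muscle form was lower and the other form higher. The first is Pfkm to Pfkp, phosphofructokinase of glycolysis, with log2 fold changes of -0.69 and 1.64. The second is Cox8b to Cox8a, a subunit of cytochrome oxidase, with -1.06 and 1.01. Eno3 to Eno1, enolase, showed -1.27 and 0.70, and Slc2a4 to Slc2a1, the insulin-responsive and the general glucose transporter, -0.92 and 1.04. Slc25a4 to Slc25a5, the mitochondrial ADP/ATP carrier, showed -0.63 and 0.99. The limma adjusted p of these 10 genes lay between 0.00101 and 0.0111, and their calls were kept in all 14 alternative settings.

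In the remaining pairs at most one side moved, or both moved the same way. Among the pairs in which the test called the other form alone as higher, Eef1a1, the general elongation factor, rose by 1.26 against Eef1a2 at -0.20. Likewise Pgam1 rose by 1.68 against Pgam2 at -0.31, Cox6a1 by 1.18 against Cox6a2 at -0.11, and Myh7, the fetal myosin heavy chain, by 0.80 against Myh6 at -0.60. The call for Myh7 was lost without Ctrl replicate 2, Ctrl replicate 3 or cKO replicate 1. The muscle form alone was lower for Cox7a1 (-1.31, with Cox7a2 at 0.05) and Ckm (-0.42, with Ckb at -0.16). Pygm and Pygb, at -0.38 and -0.70, and Ldhb and Ldha, at -0.64 and -0.35, were lower on both sides, and Pygm lost the call without Ctrl replicate 2 or 3. The call for Ldha was lost on leaving out any heart except Ctrl replicate 1. Adssl1 to Adss and Cpt1b to Cpt1a had no call on either side. Although listed as the muscle form, Cpt1b had the lower FPKM of its pair in every Ctrl heart. Its log2 ratios to Cpt1a there were -2.12, -1.75 and -1.93, on FPKM + 1. In Ckmt2 to Ckmt1 and Tnni3 to Tnni1 the other form was below the filter, with log2 fold changes of -0.60 for Ckmt2 and -0.64 for Tnni3.

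The ratio of the forms within a heart differed most for Rpl3l to Rpl3. On the log2(FPKM + 1) scale its difference was -3.70, by which the pair was chosen, and the next was that of Pfkm to Pfkp at -2.33. The ratio was lower in every cKO than in every Ctrl heart for 12 of the other 15 pairs and higher for Pygm to Pygb. It overlapped for Adssl1 to Adss and Cpt1b to Cpt1a. No share over all genes is available beside these counts, so nothing further is read from them. The order of the forms in deposited FPKM was also reversed for Eef1a2 to Eef1a1, which was picked out after its values were seen. Its mean log2 ratio was 1.10 in Ctrl and -0.36 in cKO. Transcript lengths and processed copies of these genes were not examined, so the order holds for the deposited values only. The Ctrl hearts had 794, 851 and 817 FPKM of Eef1a2 and the cKO hearts 697, 708 and 732 FPKM. For Eef1a1 the values were 454, 357 and 346 FPKM in the Ctrl hearts and 1050, 766 and 952 FPKM in the cKO hearts.

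**Figure D5:**
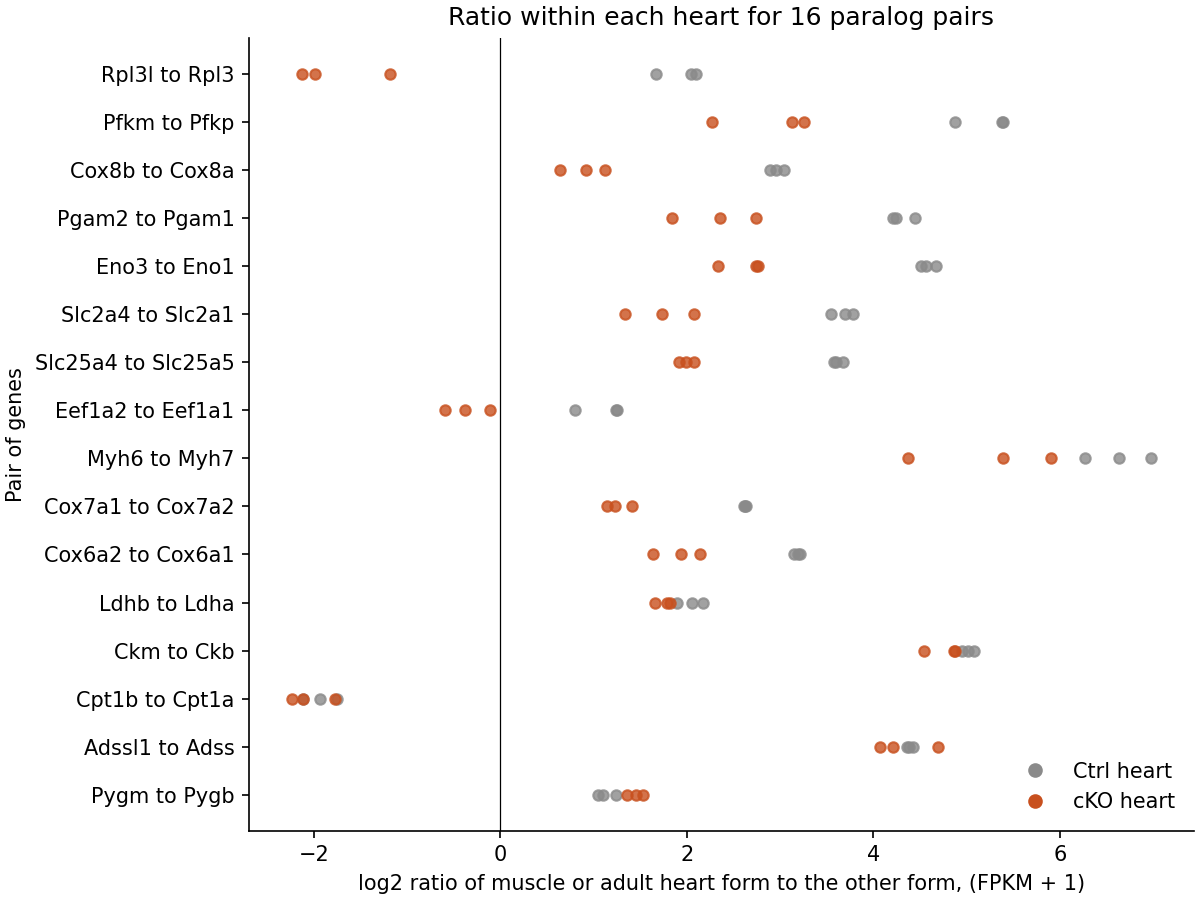
log2 ratio of the muscle or adult heart form to the other form, on FPKM + 1, for 16 pairs of genes (vertical axis), with 1 point per heart in Ctrl (grey) and cKO (orange). The points of Rpl3l to Rpl3 lie furthest apart, with group means of 1.94 and -1.77, and lie on opposite sides of 0.

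Markers of some cell types in the tissue moved as well, and their part in the lower level of Rpl3l was not tested. Over all 12944 genes tested, 16.3% were called higher and 17.0% lower in cKO. Of 12 cardiomyocyte markers, 6 were lower in cKO and 0 higher, with a median log2 fold change of -0.59, and 9 were lower without cKO replicate 2. The median marker was at 1324 to 1582 FPKM in Ctrl and 856 to 1036 FPKM in cKO. Rpl3l amounted to 14.0%, 13.1% and 14.0% of that median in the Ctrl hearts and to 4.79%, 3.38% and 6.54% in the cKO hearts. Divided by the median marker, Rpl3l was lower in every cKO heart, with a log2 difference of -1.53. The markers themselves had log2 fold changes from -1.43 to -0.11, so this ratio is not a level per cardiomyocyte. Of 8 endothelial markers, 5 were lower and 0 higher (median -0.61, summed level 148 to 172 FPKM in Ctrl and 98.3 to 115 FPKM in cKO). Of 8 fibroblast markers, 3 were higher and 1 lower (summed level 162 to 189 FPKM in Ctrl and 163 to 195 FPKM in cKO). Of 8 macrophage markers, 0 were higher and 1 lower (summed level 316 to 434 and 244 to 365 FPKM), and of 7 tested smooth muscle and pericyte markers, 1 was higher and 3 were lower (summed level 211 to 230 and 122 to 155 FPKM). Without cKO replicate 2, the lower calls numbered 8 for endothelial and 4 for smooth muscle and pericyte markers, for which 0 were then higher, and the counts for fibroblasts and macrophages were the same. None of the listed markers of these 5 cell types was at 0 in all hearts. Of 5 atrial markers, 0 were called, and Myl7 varied from 18.1 to 679 FPKM within Ctrl. Neither the macrophage nor the atrial counts exceeded the shares over all genes.

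Genes whose profile over the 6 hearts was most like that of each paralog were found among 3376 protein-coding genes that averaged 10 FPKM or more. Likeness was the root mean square difference of log2(FPKM + 1), with each gene set to 0 at its Ctrl mean. For Rpl3 the median distance was 1.15, and the 5 nearest genes were Lars, the cytosolic leucyl-tRNA synthetase (0.0968), Srxn1, sulfiredoxin (0.102), Hax1, a mitochondrial anti-apoptotic protein (0.124), Ctps, CTP synthase (0.128), and Serpinh1, a collagen chaperone (0.131). For Rpl3l the median distance was 1.51, and the 5 nearest were Cmya5, a sarcomere-associated protein also called myospryn (0.217), Ces1d, a carboxylesterase (0.231), Lrtm1 (0.278), Vldlr, a lipoprotein receptor (0.295), and Wnk2, a kinase (0.304). Cmya5 went from 69.5 ± 4.46 to 18.1 ± 2.97 FPKM and Lars from 14.0 ± 0.795 to 44.1 ± 2.16 FPKM (SD, n = 3 each). The genes nearest to Rpl3l were farther from it than those nearest to Rpl3. Of all 12944 genes tested, 88 had a larger positive log2 difference than Rpl3 and 6 a larger negative one than Rpl3l.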

How the data were processed

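RNA of 6 hearts was measured by the authors with poly-A selected libraries and paired-end reads of 150 bases. The submitters' processing notes list HISAT2 2.0.5, featureCounts 1.5.0-p3, DESeq2 1.16.1 and the build mm9, but the coordinates in the table are those of GRCm38: 53499 of 54409 identifiers shared with GENCODE M21 had the same start and end. The deposited values are FPKM, which the authors computed from read counts and gene length. The gene length, the only other value used, is deposited beside them. Strand setting and treatment of reads with several alignments are not given in the sources used here. Reads were worked back from FPKM and length, and 100% of values came out whole within 0.01 of a read. Implied library sizes were 0.913 to 0.980 times the read totals in Ctrl and 1.06 times in cKO, so the values had been scaled between samples before deposit.

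The members and the gene lists were chosen with earlier results of these data known. The 12944 genes averaging 0.5 FPKM or more were fitted as log2(FPKM + 1), which understates changes of low genes, with limma 3.58.1 in R 4.3.3 (eBayes with trend, two-sided, no covariates, Benjamini-Hochberg adjustment over all genes tested, threshold 0.05). Rpl3, Rpl3l and the paralog ratios are described without a test. Coding sequences, transcripts and their lengths came from GENCODE M21. Transcript lengths, coding lengths and the addition of pseudogene reads were alternatives chosen after seeing the data. The fit was also run on simulated data, whose outcome is not given here and is not used for the calls. Nothing in the labels beyond separate sample titles says that libraries of a group are separate animals, so p-values measure the spread between these samples. Named genes were Rpl3, Rpl3l and Mrps5, genes overlapping or next to the members, Rpl3 pseudogenes, all paralogs, RPL3 partners and pairs, the 3 highest and 3 lowest of each ribosomal list, and the 5 nearest profiles. Value columns were assigned by name, and 0 were left unmapped.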

Additional observations from a re-analysis of the deposited data

How the results depend on the processing

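The log2 differences of Rpl3 and Rpl3l kept their direction in all alternatives run. Relative to the median ribosomal protein gene they were 1.26 and -2.49, and relative to the median cardiomyocyte marker 2.21 and -1.53. Leaving out each heart in turn gave 1.54 to 1.69 for Rpl3, -2.34 to -1.93 for Rpl3l, -4.04 to -3.56 for the log2 ratio and -60.4 to -54.3 points for the share. The log2 difference of the sum was -0.30, -0.21 when scaled without mtDNA-encoded genes, and reversed to 0.24 per transcript length and 0.23 with no length correction, because Rpl3 weighs more there. Leaving out each heart gave -0.31 to -0.26 for the sum.

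Among all genes, leaving out each heart gave 1396 to 1977 higher and 1423 to 2011 lower genes. Fewest were found without Ctrl replicate 3 (1396 higher, 1432 lower) and without Ctrl replicate 2 (1423 lower). For the ribosomal protein paralogs, leaving out each heart gave 1 to 3 higher and 0 lower. The counts of subunit proteins and assembly factors stayed within 1.5 times. Same-numbered hearts of the groups did not deviate together (r of -0.06, 0.17 and -0.01), and the main fit used no pairing. With 3 hearts per group, this check cannot exclude that equal numbers mark littermates. A fit with the replicate number as a block called 1874 genes higher and 1982 lower, 29 large and 19 small subunit proteins and 22 assembly factors higher, and 1 paralog higher instead of 3, and it called Mettl18 lower (adjusted p 0.0473). Reads per coding length taken from the RefSeq proteins were not run, since these were not used here. Depth, 1141 reads or more for either gene in every heart, did not limit the description, but 3 hearts per group did.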
